A study of Mus musculus with 114 samples.

Results

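The 8 genes described here encode neuropeptide precursors of the cortex and 1 protein that binds a neuropeptide: Sst (somatostatin), Cort (cortistatin), Npy (neuropeptide Y), Vip (vasoactive intestinal peptide), Cck (cholecystokinin), Pdyn (prodynorphin), Penk (proenkephalin) and Crhbp (corticotropin-releasing hormone binding protein). They were chosen by name, as the cortical neuropeptide genes present in a table of read counts, and all 8 listed genes were found among its 13101 gene rows.

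The study asked how ribosome-associated RNA of inhibitory and excitatory neurons of the mouse prefrontal cortex changes over the day. The animals were Ribo-tag mice, in which a ribosomal protein of a chosen cell type carries a haemagglutinin (HA) tag. Tagged ribosomes were pulled down from homogenised tissue with an antibody against HA, and their RNA was made into libraries with the SMART-seq HT and Nextera Flex kits. Libraries were taken at zeitgeber time (ZT, hours after lights on) 2, 6, 10, 14, 18 and 22 from females and males, with 4 to 5 libraries for each combination of title prefix, time and sex.

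The titles begin with PV or with C, and the cell type entry names the opposite type for every library: pyramidal neurons for titles that begin with PV, and parvalbumin interneurons for titles that begin with C. Libraries were therefore grouped by the title prefix and are called PV-titled (n = 55, 28 female and 27 male) and C-titled (n = 58, 29 of each sex). Pvalb, which encodes parvalbumin, was 38.1-fold higher in PV-titled libraries and Gad1, which encodes a GABA-synthesising enzyme, was 16.5-fold higher there, while Slc17a7, the vesicular glutamate transporter of cortical pyramidal cells, was 2.48-fold higher in C-titled libraries. Both prefixes share the Ribo-tag genotype. The labels used here give no age, no Cre driver and no statement that each library is a separate animal, so p-values measure the spread between libraries, which may be partly technical.

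Total counts assigned to genes were 19098081 to 39463892 in PV-titled and 24559670 to 44077429 in C-titled libraries. Correlated with libraries of the same prefix, 8 stood apart with low values, 3 PV-titled and 5 C-titled. Transcripts of other cell types were present in libraries of both prefixes. Pyramidal markers summed to a median of 2549 CPM (TMM-scaled counts-per-million units) in PV-titled libraries against 6356 CPM in C-titled ones. Astrocyte (5 of 5), oligodendrocyte (3 of 3 tested), microglia (4 of 4) and endothelial (3 of 3) markers were all called higher in PV-titled libraries, beside 44.3% of all genes. Astrocyte markers summed to 260.5 to 703.1 CPM there and to 41.1 to 225.8 CPM in C-titled libraries.

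In the cortex these peptides are made largely by separate classes of neuron. Somatostatin, vasoactive intestinal peptide and parvalbumin mark different classes of GABAergic interneuron, neuropeptide Y and cortistatin are found in several of them, and cholecystokinin is made both by a class of basket cell and by pyramidal neurons. The precursors are cut into active peptides, which are released from dense-core vesicles and act on G protein-coupled receptors, through which they modulate the activity of nearby cells.

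The genes lie on 7 chromosomes. In build GRCm38, Sst (ENSMUSG00000004366) spans chromosome 16, 23889573 to 23890958 on the minus strand, Cort (ENSMUSG00000028971) chromosome 4, 149125034 to 149126763, minus, and Npy (ENSMUSG00000029819) chromosome 6, 49822710 to 49829507, plus. Vip (ENSMUSG00000019772) spans chromosome 10, 5639218 to 5647617, plus, Crhbp (ENSMUSG00000021680) chromosome 13, 95431371 to 95444924, minus, and Cck (ENSMUSG00000032532) chromosome 9, 121489824 to 121495694, minus. Pdyn (ENSMUSG00000027400) spans chromosome 2, 129686565 to 129699844, minus, and Penk (ENSMUSG00000045573) chromosome 4, 4133531 to 4138819, minus.

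Promoters of 7 of the 8 genes were matched in RefSeq sequence of GRCm38.p6, and the 250 bases before the RefSeq start were searched for short motifs. Shown are the 130 bases before the start of Sst, whose cAMP response element (CRE, TGACGTCA) is a textbook site of the activity-regulated factor CREB, of Vip, of Crhbp, the member called for a daily rhythm, and of Cck, the member with the highest level. Capitals mark the full CRE or its half-site (TGACG, read on either strand). They also mark the E-box CACGTG. In the promoter of Vip they mark a TATA box as well, spelled TATAAA and searched on the gene's own strand.
Sst (chr16:23890845-23890974, minus strand): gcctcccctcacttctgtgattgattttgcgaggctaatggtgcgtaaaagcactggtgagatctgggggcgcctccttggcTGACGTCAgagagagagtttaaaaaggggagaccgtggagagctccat
Vip (chr10:5639088-5639217, plus strand): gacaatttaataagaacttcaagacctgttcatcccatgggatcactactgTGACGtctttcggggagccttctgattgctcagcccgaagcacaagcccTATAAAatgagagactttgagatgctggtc
Crhbp (chr13:95444832-95444961, minus strand): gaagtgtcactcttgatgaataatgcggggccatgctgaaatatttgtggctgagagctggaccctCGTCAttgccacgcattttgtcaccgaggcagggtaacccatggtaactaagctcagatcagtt
Cck (chr9:121495695-121495824, minus strand): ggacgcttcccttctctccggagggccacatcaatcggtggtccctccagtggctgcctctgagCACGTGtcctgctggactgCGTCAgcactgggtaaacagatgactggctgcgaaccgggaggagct
The full CRE stood at positions -48 to -41 of Sst, counted back from the start, and was found in 1 of the 7 genes and in 1.55% of all 32851 RefSeq promoters over the same length. The half-site, searched on both strands and contained in every full CRE, was in 5 of the 7 (Sst, Vip, Cort, Cck and Crhbp) against 17.8% of all promoters. The E-box was in 1 of the 7 (Cck) against 6.02%, and the TATA box in 1 of the 7 (Vip) against 7.59%. The D-box TTANGTAA, bound by clock output factors, was in 0 of the 7 and in 2.06% of all promoters. These matches describe letters only and show no binding. The RefSeq starts of Sst and Crhbp lie inside the gene spans given above, which come from another annotation.

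All 8 genes differed between the prefixes, 5 toward PV-titled and 3 toward C-titled libraries. The test was edgeR's quasi-likelihood F test with time, sex and library-number range in the model and Benjamini-Hochberg adjustment over 13053 genes, called at an adjusted p under 0.05. At these numbers of libraries most genes were called, 44.3% of all genes tested as higher in PV-titled and 43.2% as higher in C-titled libraries, so the size of a member's difference says more than its call. By size, Crhbp ranked 13th, Cort 35th, Npy 84th, Vip 586th and Sst 897th of the 13053 genes toward PV-titled libraries, and Cck ranked 2nd, Pdyn 52nd and Penk 134th toward C-titled libraries.

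**Figure D1:**
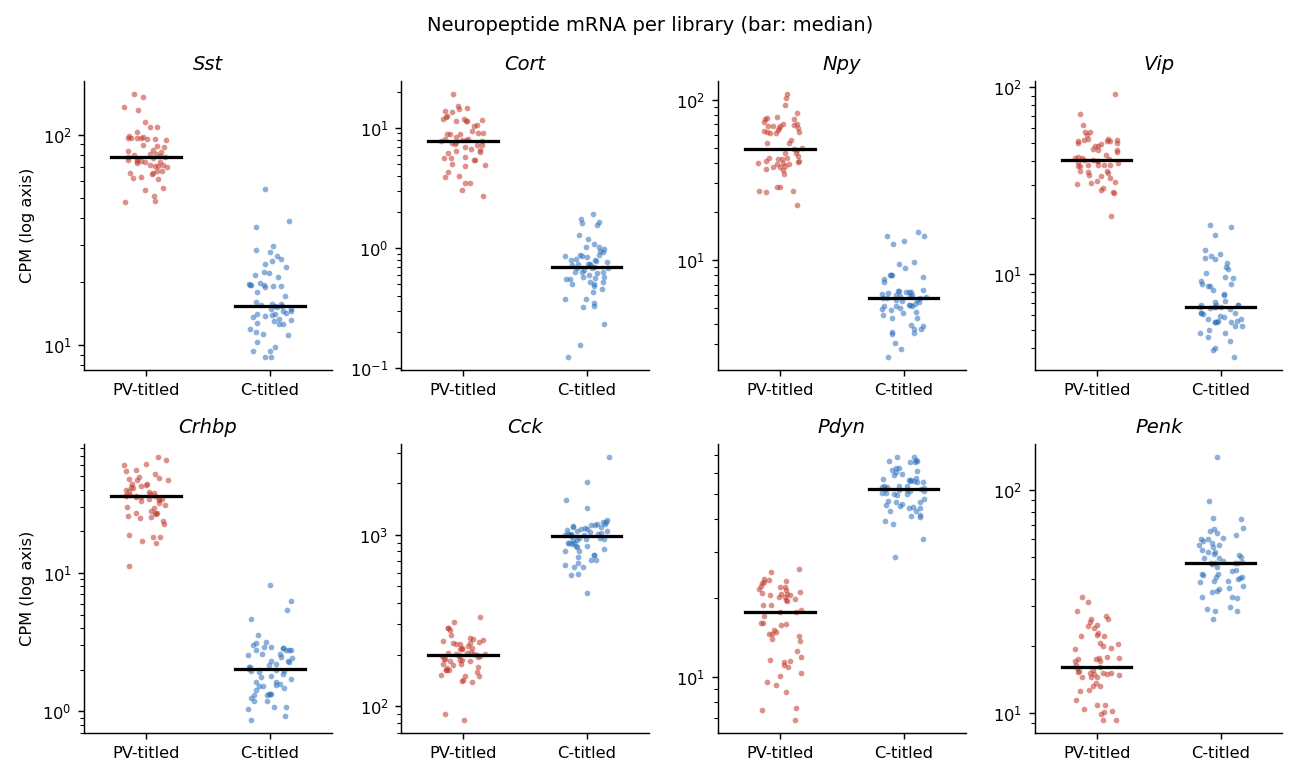
Each panel plots 1 gene in TMM-scaled CPM on a log axis, with 1 point per library (55 PV-titled in red, 58 C-titled in blue) and a bar at the median. The point clouds do not overlap except for Sst and Penk.

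Among the interneuron peptides, Sst was the most abundant per kilobase of exon. Its level ran from 47.9 CPM through a median of 78.5 to 156.2 CPM in PV-titled libraries, and from 8.76 through 15.4 to 55.1 CPM in C-titled libraries. The groups overlapped only through a single C-titled library, ZT6 female replicate 5, one of those that stood apart, and the other 57 C-titled libraries lay below every PV-titled one. The means were 83.9 ± 23.1 (SD, n = 55) and 18.05 ± 8.13 CPM (n = 58), a 4.75-fold difference (log2 2.25, SE 0.09, edgeR adjusted p = 5.61e-48), and the log2 difference was 2.31 without the libraries that stood apart.

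Cort encodes cortistatin, a relative of somatostatin that binds the same receptors. Its counts were low, with 2.74 CPM at the lowest, a median of 7.82 and 19.1 CPM at the highest in PV-titled libraries, against 0.124, 0.693 and 1.90 CPM in C-titled libraries. No C-titled library reached the lowest PV-titled one, although the lowest C-titled value rested on 4 reads. The difference was 10.9-fold (log2 3.45, SE 0.13, edgeR adjusted p = 1.92e-49).

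Npy, whose peptide dampens release from excitatory terminals, had 22.02, 48.8 and 108.1 CPM as its lowest, median and highest values in PV-titled libraries. In C-titled libraries these were 2.47, 5.76 and 14.9 CPM, and the groups did not overlap. The difference was 8.71-fold (54.1 ± 19.4 against 6.31 ± 2.79 CPM, log2 3.12, SE 0.10, edgeR adjusted p = 6.35e-55).

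Vip marks interneurons that inhibit other interneurons. PV-titled libraries held 20.3, 40.9 and 91.6 CPM as the lowest, median and highest values, and C-titled libraries 3.59, 6.68 and 18.2 CPM, again without overlap. The difference was 5.65-fold (43.0 ± 11.9 against 7.82 ± 3.30 CPM, log2 2.50, SE 0.08, edgeR adjusted p = 6.15e-54).

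Crhbp encodes a secreted protein that binds corticotropin-releasing hormone and keeps it from its receptors. It had the largest difference of the 8, from 11.2, 35.8 and 69.2 CPM (lowest, median and highest) in PV-titled to 0.869, 2.01 and 8.20 CPM in C-titled libraries, and the groups did not overlap. The means were 36.6 ± 12.7 and 2.29 ± 1.29 CPM, a 16.4-fold difference (log2 4.04, SE 0.12, edgeR adjusted p = 2.51e-59), close in size to that of Gad1.

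Markers of several interneuron classes were higher in the same libraries as Sst and Vip. All 6 pan-GABAergic markers, all 5 PV interneuron markers tested and all 3 VIP interneuron markers tested (Calb2, Htr3a and Cxcl14) were called higher in PV-titled libraries. Among all genes 44.3% were called higher there and 43.2% higher in C-titled libraries. Of the SST interneuron markers besides the members, 1 of 4 tested was higher in PV-titled libraries (Elfn1, log2 0.62) and 3 were higher in C-titled libraries (Grin3a, log2 -0.24, Nos1, log2 -0.60, and Calb1, log2 -0.80). Of the 4 LAMP5 interneuron markers, 3 were higher in PV-titled libraries (Ndnf, log2 2.09, Reln, log2 1.61, and Cplx3, log2 0.48), and Lamp5 itself was higher in C-titled libraries (log2 -1.61). Reads of these markers, like those of glial genes, cannot be assigned to tagged or untagged cells in a bulk pull-down, where fewer cells of a type and less RNA per cell cannot be told apart either. The median log2 difference was 2.25 for astrocyte, 2.47 for oligodendrocyte, 2.33 for microglia and 2.56 for endothelial markers. Sst (2.25) and Vip (2.50) lay within the range of these medians, below Gad1 (4.04) and Pvalb (5.25). Npy (3.12), Cort (3.45) and Crhbp (4.04) lay above it. The part of interneuron, glial and endothelial transcripts in the levels of Sst, Vip, Npy and Cort was not tested.

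Cck was the leading member on the C-titled side. Its lowest, median and highest values were 457.1, 984.8 and 2843 CPM in C-titled libraries and 83.4, 199.3 and 331.8 CPM in PV-titled libraries, with no overlap. The difference was 4.94-fold (1002 ± 349 against 201.3 ± 47.9 CPM, log2 of PV-titled over C-titled -2.31, SE 0.08, edgeR adjusted p = 1.25e-53). The highest C-titled value came from ZT2 male replicate 4, a library that stood apart, and the log2 difference was -2.26 without such libraries.

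The opioid precursors were also higher in C-titled libraries. Pdyn, the precursor of dynorphins that act on the kappa opioid receptor, had 28.8, 52.2 and 69.1 CPM (lowest, median and highest) there and 6.87, 17.6 and 25.9 CPM in PV-titled libraries, and the groups did not overlap. The difference was 3.12-fold (52.3 ± 8.93 against 16.8 ± 5.12 CPM, log2 -1.64, SE 0.07, edgeR adjusted p = 2.8e-43). Among the 8 genes Pdyn varied least across C-titled libraries, with a coefficient of variation of 17.1%, while Crhbp varied most at 56.4%.

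Penk, the precursor of enkephalins that act on delta and mu opioid receptors, had 26.3, 47.2 and 141.1 CPM in C-titled and 9.29, 16.1 and 33.1 CPM in PV-titled libraries. Of the 58 C-titled libraries, 51 lay above every PV-titled one. The difference was 2.82-fold (49.5 ± 17.9 against 17.6 ± 5.80 CPM, log2 -1.49, SE 0.08, edgeR adjusted p = 5.03e-34). Penk overlaps A830012C17Rik, a gene on the other strand, by 499 bases, and counting by strand is not stated, so reads of that stretch cannot be told apart. A830012C17Rik stood at 4.93 ± 1.88 CPM in C-titled and 2.06 ± 0.751 CPM in PV-titled libraries.

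The library numbers in the titles fall into a lower and a higher range, and each range alone gave the same directions. The log2 difference of Crhbp was 3.79 in the first range and 4.34 in the second, that of Sst 2.32 and 2.19, that of Cck -2.14 and -2.46, and that of Penk -1.33 and -1.61. Every one of the 6 times of day also showed the same direction in the means of all 8 genes. The fold ran from 3.55 (ZT2) to 6.23 (ZT10) for Sst, from 9.45 (ZT2) to 15.4 (ZT6) for Cort, from 11.9 (ZT18) to 20.3 (ZT6) for Crhbp, and, toward C-titled libraries, from 4.45 (ZT22) to 5.91 (ZT2) for Cck.

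Levels of different genes were compared in CPM per kilobase of exon. In C-titled libraries Cck stood at 767.6 ± 267.5 and held 89.6% of the summed level of the 8 genes, above Penk in 58 of 58 libraries. Penk (30.3 ± 10.9), Sst (25.03 ± 11.28) and Pdyn (18.1 ± 3.09) followed within each other's spread, then Npy (11.2 ± 4.93), Vip (2.30 ± 0.971), Crhbp (1.27 ± 0.717) and Cort (1.12 ± 0.552). In this order Pdyn and Npy, Vip and Crhbp, and Crhbp and Cort also lay within the sum of their SDs, while Npy and Vip did not.

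In PV-titled libraries the total was spread over 3 genes. Cck (154.2 ± 36.7 CPM per kilobase), Sst (116.3 ± 32.0) and Npy (95.5 ± 34.3) held 36.0%, 27.2% and 22.3% of the summed level, and neighbours among them were within the sum of their SDs, although Cck was above Sst in 46 of 55 libraries and Sst above Npy in 40 of 55. A gap separated Npy from the rest in 55 of 55 libraries. Crhbp (20.4 ± 7.07) came next, followed by Vip (12.6 ± 3.50), Cort (12.3 ± 5.20), Penk (10.8 ± 3.55) and Pdyn (5.82 ± 1.77), each within the spread of its neighbour. Cck therefore led in libraries of both prefixes, at levels 4.94-fold apart.

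Daily profiles were fitted with a cosine and sine of a 24 h period in each prefix alone, and the amplitude is given in log2 units from mean to peak. In PV-titled libraries 1 of 8 genes, Crhbp, was called, against 3.10% of all genes, and 2 of 8 (Cort and Crhbp) had an unadjusted p under 0.05. In C-titled libraries 0 of 8 were called by edgeR, against 27.0% of all genes. There 0 of 8 had an unadjusted p under 0.05, and DESeq2 also called 0.

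**Figure D2:**
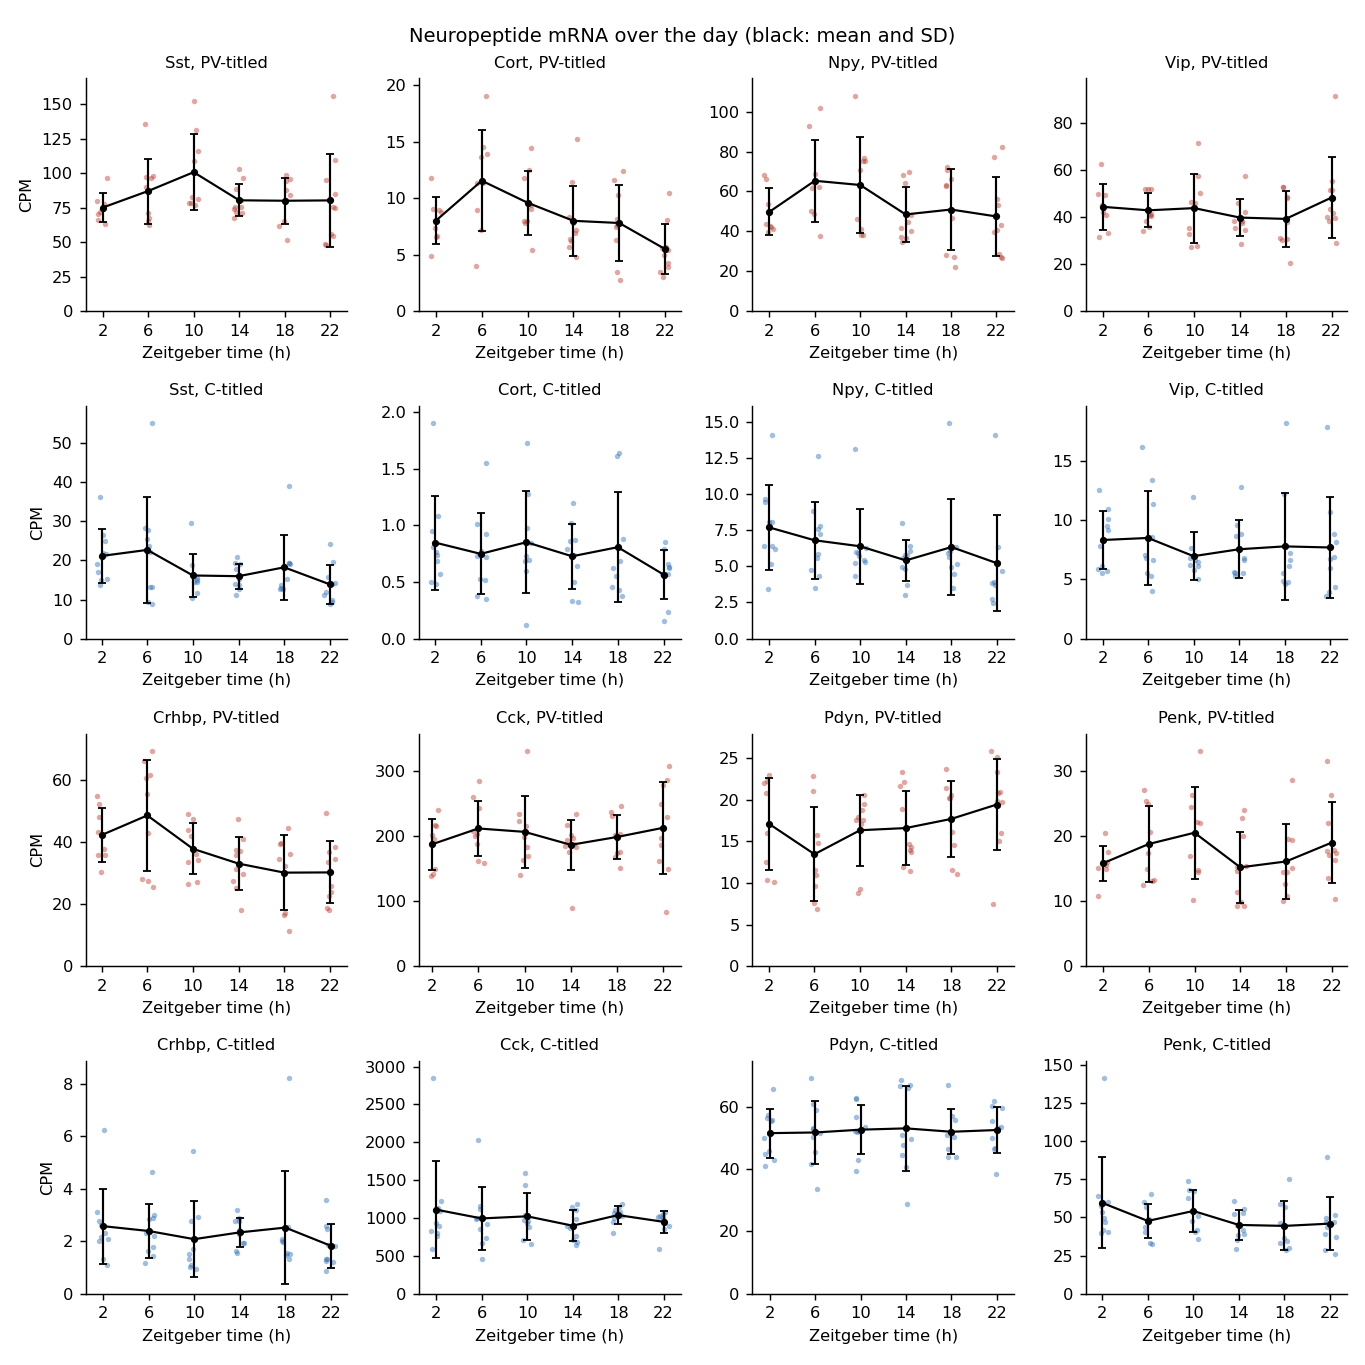
Each panel plots 1 gene in 1 prefix over zeitgeber time in hours, in CPM on a linear axis from 0, with 1 point per library and the mean and SD at each time in black. Crhbp and Cort in PV-titled libraries have their highest mean at ZT6, and the means of Pdyn in C-titled libraries lie between 51.6 and 53.1 CPM.

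Crhbp in PV-titled libraries was highest in the first part of the light phase. Its mean was 42.2 ± 8.73 CPM at ZT2 (n = 8), 48.5 ± 17.8 at ZT6 (n = 9) and 37.7 ± 8.23 at ZT10 (n = 9). It was 33.0 ± 8.44 CPM at ZT14 (n = 10), 30.1 ± 11.98 at ZT18 (n = 9) and 30.1 ± 9.98 at ZT22 (n = 10). The libraries overlapped widely between times, from 25.3 to 69.2 CPM at ZT6 and from 11.2 to 44.4 CPM at ZT18. The fitted amplitude was 0.34 (SE 0.09), a 1.61-fold rise from trough to peak, with the peak at ZT5.84 (edgeR adjusted p = 0.0369).

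The call for Crhbp was near the threshold. The amplitude was 0.33 in the first library-number range alone (adjusted p = 0.498) and 0.38 in the second (adjusted p = 0.289). The peaks were at ZT4.53 and ZT6.91, and neither range, which holds only part of the libraries, passed. Leaving out replicate 2, 3, 4, 5 or 6 ended the call, with adjusted p-values of 0.0838, 0.104, 0.0834, 0.195 and 0.061 at amplitudes of 0.370, 0.378, 0.376, 0.277 and 0.321, and replicate 6 is a single library (PV-titled, ZT18, female). With time as a factor of 6 levels in place of the cosine, the adjusted p was 0.18 and the range of the fitted time levels, divided by 2, was 0.345. DESeq2 gave an adjusted p of 0.016, and the fit without the libraries that stood apart gave 0.0271.

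Pvalb and Gad1 had their highest means at the same time as Crhbp in these libraries. Pvalb averaged 50.4 CPM at ZT6 and 25.9 CPM at ZT22, and Gad1 479.4 and 364.4 CPM, neither called for a rhythm (adjusted p = 0.413 and 0.33), while Slc17a7 averaged 622.2 CPM at ZT6 and 889.8 CPM at ZT22. Their part in the profile of Crhbp was not tested.

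Cort had the larger amplitude in PV-titled libraries but missed the threshold. Its mean was 8.01 CPM at ZT2, 11.6 at ZT6, 9.60 at ZT10, 7.99 at ZT14, 7.80 at ZT18 and 5.49 at ZT22, a 2.10-fold range of means. The amplitude was 0.39 (SE 0.11) with the peak at ZT8.36 (edgeR adjusted p = 0.0653). It passed with the replicate block (0.0166), with DESeq2 (0.0326) and without the libraries that stood apart (0.038). It did not pass in the first or second library-number range alone (edgeR adjusted p = 0.744 and 0.231). Nor did it pass in females alone (0.439), in males alone (0.59) or with time as a factor (0.152). With any 1 replicate number left out, edgeR's adjusted p was 0.052 to 0.317.

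The other 6 genes were not called in PV-titled libraries. Npy had an amplitude of 0.22 (SE 0.09, peak ZT7.03, adjusted p = 0.30) and Pdyn one of 0.20 (SE 0.09, adjusted p = 0.36), with its highest mean, 19.4 CPM, at ZT22 and its lowest, 13.5 CPM, at ZT6, the time of the highest Crhbp and Cort. Vip (0.14), Penk (0.13), Sst (0.11) and Cck (0.03) had smaller amplitudes. For Cck the highest mean was 213.3 CPM, at ZT22, and the upper end of the 95% interval allows a 1.27-fold change from trough to peak. In PV-titled females alone Pdyn had an amplitude of 0.419 with the peak at ZT19.6 (edgeR adjusted p = 0.146). In PV-titled males alone it had 0.0981 with the peak at ZT2.98 (adjusted p = 0.924). Neither was called, and the difference between the sexes in daily profile was not tested.

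In C-titled libraries of both sexes together, Pdyn was nearly level over the day. Its means were 51.6, 51.8, 52.7, 53.1, 52.0 and 52.6 CPM from ZT2 to ZT22, with an amplitude of 0.01 (SE 0.04), and the upper end of its 95% interval allows a 1.13-fold change from trough to peak. In each sex alone its amplitude was larger, 0.115 with the peak at ZT14.4 in females (adjusted p = 0.423) and 0.0993 with the peak at ZT2.64 in males (adjusted p = 0.487). Neither was called, and the difference between the sexes in daily profile was not tested. Cck had an amplitude of 0.06 (SE 0.07), for which the interval allows a 1.31-fold change. Sst had an amplitude of 0.20 (SE 0.09, peak ZT4.93, edgeR adjusted p = 0.186), with means of 22.7 CPM at ZT6 and 13.9 CPM at ZT22. Without the libraries that stood apart, its ZT6 mean was 18.7 CPM and its amplitude 0.0989, below those of Cort (0.196) and Penk (0.183). Crhbp had an amplitude of 0.01 (SE 0.12) in these libraries.

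Whether the daily profile differed between the prefixes was tested as a product of prefix with cosine and sine. Of the 8 genes 0 were called by edgeR, against 0.559% of all genes, 0 had an unadjusted p under 0.05, and DESeq2 called 0. For Crhbp the unadjusted p was 0.0642 (adjusted p = 0.401), so its call in 1 prefix and not in the other is not shown to be a difference between them.

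Sex was tested in each prefix. In C-titled libraries 1 of 8 genes, Pdyn, was called, against 0.184% of all genes, and 2 of 8 (Sst and Pdyn) had an unadjusted p under 0.05. In PV-titled libraries edgeR called 0 of 8, against 0.0307% of all genes, 0 had an unadjusted p under 0.05, and DESeq2 called 0.

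Pdyn was higher in females among C-titled libraries. Females ran from 33.5 CPM through a median of 57.1 to 69.1 CPM, and males from 28.8 through 46.9 to 59.6 CPM. The groups overlapped, with 26 of 29 female libraries above the male median and 28 of 29 male libraries below the female median. The means were 57.3 ± 8.38 (n = 29) and 47.3 ± 6.33 CPM (n = 29), a log2 difference of male minus female of -0.28 (SE 0.06, edgeR adjusted p = 0.0125), or 1.22-fold.

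**Figure D3:**
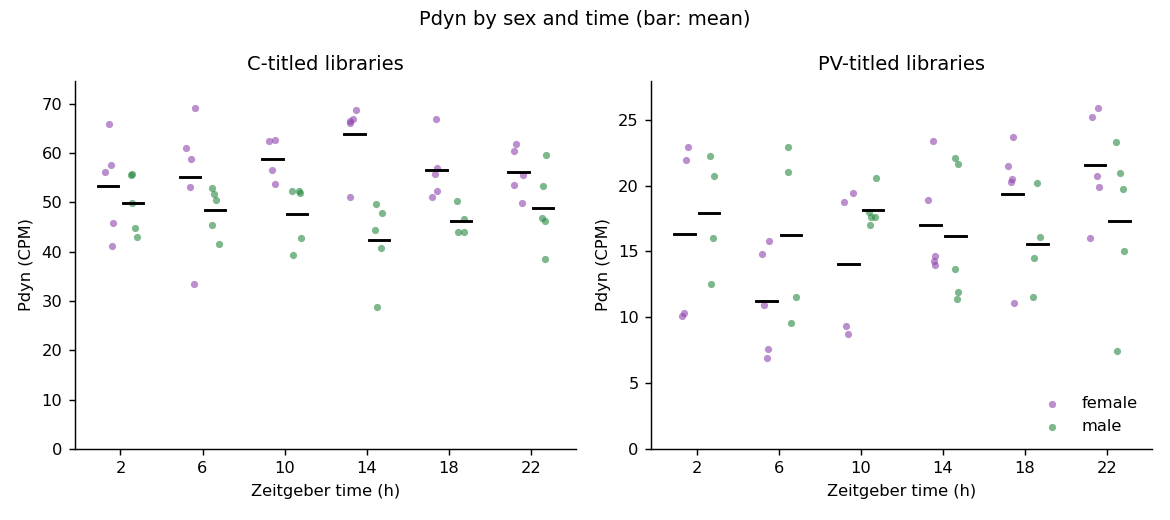
Both panels plot Pdyn in CPM against zeitgeber time in hours, with 1 point per library, females in purple, males in green and a bar at each mean. In the C-titled panel the female mean is above the male mean at 6 of 6 times, and the widest gap is at ZT14 (63.9 against 42.3 CPM).

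The female mean of Pdyn was above the male mean at 6 of 6 times in C-titled libraries, from 53.3 against 49.8 CPM at ZT2 to 63.9 against 42.3 CPM at ZT14. Pdyn, on chromosome 2, was 1 of 24 genes called for sex there, of which 9 lie on X and 15 on autosomes, 10 of the latter higher in females. The log2 difference was -0.27 in the first library-number range alone (adjusted p = 0.493) and -0.28 in the second (adjusted p = 0.991). Pdyn was called in neither range, each of which holds only part of the libraries. Leaving out replicate 2, 3 or 4 also ended the call (adjusted p = 0.255, 0.0702 and 0.121, log2 -0.24, -0.29 and -0.28).

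In PV-titled libraries Pdyn was 16.7 ± 5.71 CPM in females (n = 28) and 16.9 ± 4.53 CPM in males (n = 27), a log2 difference of 0.04 (SE 0.12, 95% interval -0.20 to 0.29). The test of the difference between the prefixes gave an unadjusted p of 0.0191 for Pdyn and an adjusted p of 0.999, so it did not pass. In that test edgeR called 0 of 13053 genes, or 0%, 382 genes had an unadjusted p under 0.05, and DESeq2 also called 0. Sst in C-titled libraries was 19.97 ± 10.09 CPM in females and 16.1 ± 5.01 CPM in males and did not pass (adjusted p = 0.629).

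Variation between libraries linked the interneuron peptides to each other in C-titled libraries. Across 58 libraries, after time, sex and library-number range were taken out, log2 levels of Sst and Npy had a Pearson r of 0.80, Vip and Npy 0.71, Sst and Cort 0.63, Sst and Vip 0.59 and Npy and Crhbp 0.58. The 3 genes most like Npy were Sst, Car2 (r = 0.78) and Gad1 (0.77), and those most like Vip were Npy, Gad1 (0.69) and Slc1a3 (0.68), a glutamate transporter gene of astrocytes. Crhbp was most like Selenop (0.71), Pvalb (0.63) and Itih3 (0.63). Sst was most like Npy, Gprc5b (0.74) and Ndrg2 (0.70), and Cort was most like Gtpbp6 (0.67), Sst and Gm17661 (0.60). Slc1a3 also had an r of 0.70 with Npy, 0.52 with Crhbp and 0.47 with Sst, and its part in these values was not tested. Pdyn had negative values with all 5 interneuron genes, -0.49 with Npy, -0.44 with Sst (-0.32 without the libraries that stood apart), -0.34 with Cort, -0.33 with Crhbp and -0.10 with Vip. These values share the libraries' makeup and scaling and are given as a description.

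**Figure D4:**
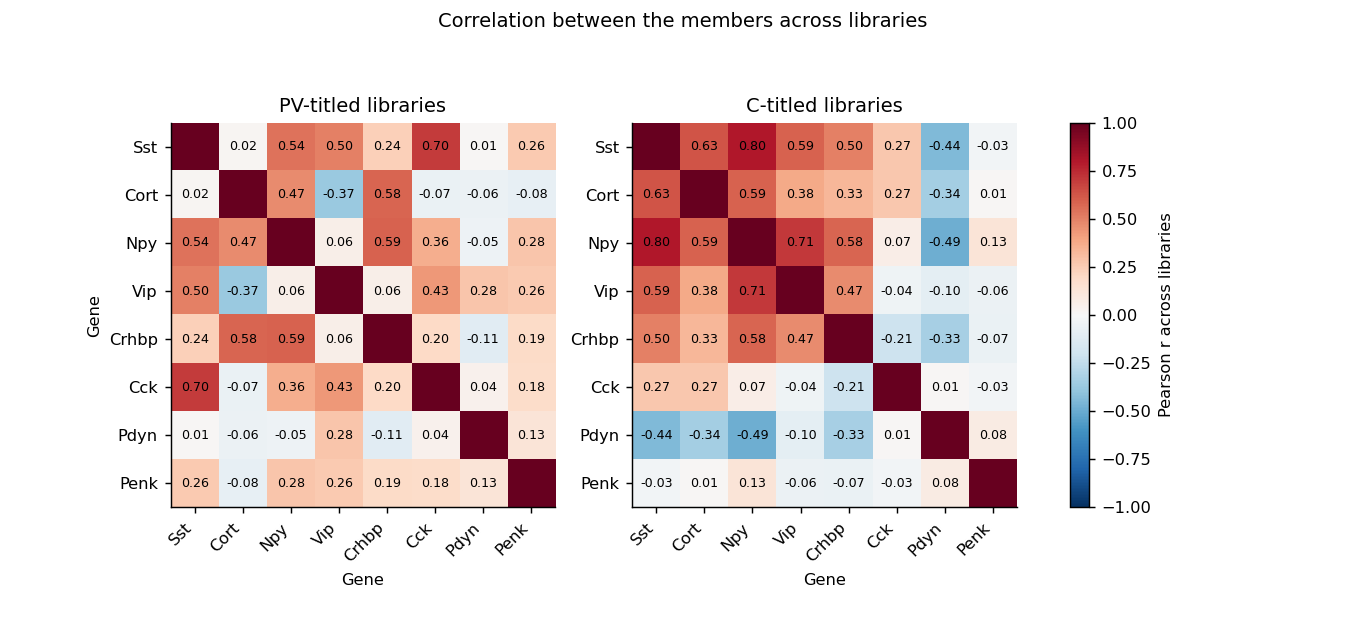
Both panels show Pearson r between pairs of the 8 genes across libraries (55 PV-titled, 58 C-titled) after time, sex and library-number range were taken out, on a colour scale from -1 (blue) to 1 (red). The block of Sst, Cort, Npy, Vip and Crhbp is positive throughout in the C-titled panel, from 0.33 to 0.80, and mixed in the PV-titled panel, where Cort and Vip have an r of -0.37.

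The C-titled libraries with set number 1 in their titles carried more of all 5 interneuron genes than the other sets together. For Cort the gap was small, and set 5 was close to set 1 at 0.812 CPM. In the 12 libraries of set 1 Crhbp averaged 3.77 CPM against 1.90 CPM in the other sets, Vip 11.7 against 6.80 CPM, Npy 8.98 against 5.62 CPM, Sst 23.2 against 16.7 CPM and Cort 0.834 against 0.735 CPM. Gad1 averaged 44.5 against 21.7 CPM and Pvalb 2.06 against 0.809 CPM in the same libraries, and Slc17a7 1449 against 1778 CPM. One library of this set, ZT18 female replicate 1, had the highest Vip, Npy, Crhbp, Pvalb and Gad1 of all 58. Slc17a7 was lower still in C-titled set 3, at 1297 CPM. Among PV-titled libraries, set 1 (n = 7) also had more Sst (106.2 against 80.6 CPM in the other sets). There Vip was 51.6 against 41.8 CPM and Npy 62.4 against 52.9 CPM. Cort (6.11 against 8.68 CPM) and Crhbp (31.5 against 37.4 CPM) went the other way. The sets were compared after the values had been seen, with no test.

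In PV-titled libraries only some of the interneuron genes were linked to each other, and the difference between the prefixes was not tested. There Sst and Npy had an r of 0.54, Sst and Vip 0.50 and Npy and Cort 0.47. Sst and Cort had 0.02 and Vip and Npy 0.06. Cort was most like Pvalb (r = 0.67) and Cox6a2 (0.65), both on the list of PV interneuron markers, and Scn1a (0.64), a sodium channel gene. Crhbp was most like Tac1 (0.78), the precursor of substance P, Gad1 (0.69) and Atp1b1 (0.69), a subunit of the sodium pump. Npy was most like Slc25a5 (0.70), Atp5g1 (0.68) and Manf (0.67). Cort and Crhbp had an r of 0.58 with each other, and Npy and Crhbp 0.59. Sst was most like Psma2 (0.71), a proteasome subunit, Cck (0.70) and Myl12b (0.68). Vip was most like Prnp (0.69), Chn1os1 (0.65) and Clu (0.65), a gene strongly expressed in astrocytes, and it had an r of 0.47 with Slc1a3. Cort and Vip had an r of -0.37. Across 55 libraries Sst had an r of 0.24 with Pvalb and 0.08 with Gad1.

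Correlations of Cck with its closest genes were high in libraries of both prefixes. In C-titled libraries its closest genes included Imp3 and Uchl1 (r = 0.93 each), and in PV-titled libraries Gng3 (0.85), Tmsb4x and Clta (0.84 each). Penk was most like A830012C17Rik, the gene overlapping it on the other strand, in libraries of both prefixes (r = 0.89 in C-titled and 0.68 in PV-titled), where shared reads cannot be told apart. Next to Penk came Plekha2 (0.66) and Pcdh7 (0.59) in C-titled libraries, and Cdpf1 (0.54) and Dnah17 (0.52) in PV-titled ones. Pdyn was most like Map2k1 (0.64), Wfs1 (0.61) and Cpxm2 (0.61) in C-titled libraries, and Hnrnpf (0.52), Grin3a (0.52) and Mid1ip1 (0.51) in PV-titled ones.

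Receptors of these peptides differed in both directions, some with their ligand and some against it. Since most genes were called in either direction, a direction opposite to the ligand says little by itself. Of 19 listed receptors and binding partners 11 were tested. Of these, 2 were higher in PV-titled libraries (44.3% of all genes) and 6 in C-titled libraries (43.2% of all genes). The other 3 (Sstr4, Oprd1 and Crhr1) were not called. The median log2 difference of the 11 was -0.47 beside 0.01 for all genes. The somatostatin and cortistatin receptors Sstr1, Sstr2 and Sstr3 were 2.52-, 2.23- and 2.25-fold higher in C-titled libraries, opposite in direction to Sst and Cort. Sstr2 stood at 30.8 ± 8.59 CPM in C-titled and 13.9 ± 5.96 CPM in PV-titled libraries.

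The neuropeptide Y receptors Npy1r (log2 -0.59) and Npy5r (log2 -0.80) were higher in C-titled libraries, opposite to Npy. The cholecystokinin receptor Cckbr was 1.39-fold higher there (211.7 ± 36.2 against 152.1 ± 22.9 CPM), the same direction as Cck. The receptor Vipr1 was higher in PV-titled libraries (33.6 ± 8.75 against 25.9 ± 5.61 CPM, 1.29-fold), as was Crh, the hormone that Crhbp binds (6.18 ± 4.05 against 2.45 ± 1.24 CPM, 2.53-fold). For all of these edgeR's adjusted p was under the threshold.

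Of the 11 receptors and partners tested, 1 was called for a daily rhythm in C-titled libraries, against 27.0% of all genes. Sstr2 in C-titled libraries had an amplitude of 0.35 (SE 0.06) with its peak at ZT14.6 (edgeR adjusted p = 0.000135), and in PV-titled libraries 0.29 (SE 0.12, adjusted p = 0.31), while the difference between the prefixes was not called (adjusted p = 0.883). Sst had its peak at ZT4.93 in the C-titled fit but was not called.

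Of the 9 other neuropeptide precursors listed, 5 were tested and all differed between the prefixes, as did 87.5% of all genes tested. Of the 5, 3 differed toward PV-titled and 2 toward C-titled libraries. Tac1 was 42.5-fold (54.0 ± 23.6 against 1.30 ± 1.04 CPM), Cartpt 17.0-fold and Crh 2.53-fold higher in PV-titled libraries. Grp, gastrin-releasing peptide, was 3.96-fold and Adcyap1, which encodes the peptide PACAP, 3.07-fold higher in C-titled libraries. In C-titled libraries 1 of the 5, Adcyap1, was called for a rhythm, beside 27.0% of all genes, with an amplitude of 0.22 (SE 0.04) and its peak at ZT5.30 (edgeR adjusted p = 0.000274).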

How the data were processed

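The authors deposited 1 table of read counts per gene. Per the submitters' processing notes it was made with FastQC and HTSeq on build GRCm38, and DESeq2 was used for their own tests. Their versions and the aligner were not given in those sources. The table was deposited with 13101 genes, and a row of reads in no gene, 51.9% to 67.7% of each library, was left out of totals and tests. Of its 114 columns 113 were used, and 1 was not, because its name and the title it resembles give different sexes.

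Counts were scaled with TMM and tested with edgeR 4.0.16 in R 4.3.3, after filterByExpr on prefix, time and sex, with Benjamini-Hochberg adjustment over all genes tested and a threshold of 0.05. Levels are CPM of all libraries scaled together. The comparison of prefixes had time, sex and library-number range as terms, and rhythm and sex were fitted in each prefix alone with a period of 24 h. Gene positions and exon lengths came from GENCODE vM21, and 13051 genes matched a symbol. Scripts were tested on simulated counts. Libraries that stood apart had a median correlation over 8 median absolute deviations below that of their prefix, a setting chosen after seeing the data. In 212 pairs of libraries within groups the lowest chi-square per degree of freedom was 14.0, so no library was a copy of another in its group. Pairs across groups were not compared in this way. DESeq2 1.42.0, other scalings and filters, parts of the libraries and a replicate block were alternatives. Every member, every listed receptor, partner or other precursor called in a test, 3 reference genes and, for each member, the 3 genes of highest correlation are named, except 1 that is not reported here. Members and lists were chosen with earlier results of these data known.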

Additional observations from a re-analysis of the deposited data

Results flagged for a closer look

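The libraries were split by prefix, time and sex. In 27 combinations of gene and group, or 14.1% of those tested, 1 library lay far from the others. A chance rate of about 1 in 20 would hold only for independent, normally distributed values. The genes share libraries, and some are correlated (Sst and Npy, r = 0.80 in C-titled libraries). Most of the flagged values were also high ones. An excess over chance therefore cannot be read from this percentage.

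In C-titled libraries 12 of the flagged combinations were high values in replicate 1, all of interneuron genes. At ZT10 in females replicate 1 had 29.5 CPM of Sst (others 14.6 to 15.6), 11.95 CPM of Vip and 13.2 CPM of Npy. At ZT18 in females it had 39.1 CPM of Sst (others 12.7 to 19.2), 14.9 CPM of Npy and 8.20 CPM of Crhbp (others 1.48 to 2.56). At ZT22 in females it had 19.65 CPM of Sst and 2.58 CPM of Crhbp, and at ZT22 in males 14.1 CPM of Npy. At ZT6 in males it had 25.5 CPM of Sst and 16.2 CPM of Vip, and at ZT18 in males 7.21 CPM of Vip. Gad1 was also higher in these sets, as given above, and its part in them was not tested.

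C-titled ZT6 female replicate 5, a library that stood apart, had 55.1 CPM of Sst (others 22.2 to 28.3) and 12.6 CPM of Npy. Cck reached 2843 CPM in C-titled ZT2 male replicate 4, which also stood apart (others 804.5 to 1222 CPM). Penk reached 141.1 CPM in C-titled ZT2 female replicate 2 (others 40.0 to 60.0 CPM). Cort was 1.62 CPM in C-titled ZT18 male replicate 5, and Pdyn was low, at 51.1 CPM, in C-titled ZT14 female replicate 1 (others 66.2 to 68.8 CPM).

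Among PV-titled libraries, ZT10 female replicate 1, which stood apart, had 115.7 CPM of Sst (others 78.3 to 81.5). ZT2 female replicate 5 had 66.5 CPM of Npy and a low 6.58 CPM of Cort. Cort was 14.5 CPM in ZT10 male replicate 4 and 15.2 CPM in ZT14 male replicate 3. Cck was 331.8 CPM in ZT10 male replicate 1 and a low 90.0 CPM in ZT14 male replicate 1, which stood apart. Pdyn was 20.6 CPM in ZT10 male replicate 5 and a low 11.1 CPM in ZT18 female replicate 3.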

How the results depend on the processing

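The differences of the 8 genes between the prefixes kept direction and call in 128 of 128 recomputed values, over 16 alternatives. Counting on library totals alone moved the median log2 difference of all genes from 0.01 to 0.21, and the members with it (Sst 2.45, Cck -2.10).

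The daily rhythm calls were less stable. Of the 8 genes, 2 (Cort and Crhbp) were called in PV-titled libraries with DESeq2, with the replicate block and without the libraries that stood apart, and 0 in either library-number range alone, in females alone, in males alone and with time as a factor, where fewer libraries or more time terms entered. Leaving out 1 replicate number at a time gave 0 to 1. Over all genes, the percent called rhythmic in PV-titled libraries was 0.153 and 0.307 in the first and second range, 0.997 in females, 0.0613 in males, 1.2 with time as a factor, and 0.728 to 2.61 with 1 replicate number left out, against 3.10 in all. In C-titled libraries it was 2.9, 10.2, 2.07, 3.63, 10 and 15.1 to 27.0 in the same order, against 27.0. A rhythm that differed between prefixes, 0.559% of genes in all, was called for 1.19% with DESeq2, 0.283% with library totals alone, 0.184% with the replicate block, 0% and 0.0153% in the ranges, 0.0307% in females, 0.00766% in males, 0.13% with time as a factor, 0.138% without the libraries that stood apart, and 0.0383% to 0.674% with 1 replicate number left out.

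Sex was called for 0.0153% of genes in PV-titled libraries of the first range, against 0.0307% in all. In C-titled libraries, where it was 0.184%, it was 0.299% with DESeq2, 0.0537% and 0.0307% in the ranges, 0.698% without the libraries that stood apart and 0.0614% to 0.184% with 1 replicate number left out. Pdyn was called there except in either range alone, where 0 of 8 genes were called, and without replicate 2, 3 or 4 (0 to 1 called). The cause of these changes in the rhythm and sex calls was not tested.

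The title numbers did not meet the bar for pairing, a correlation over 0.1 in every pair. A single low pair fails this bar, so missing it does not show that same-numbered libraries are unrelated. Deviations of same-numbered libraries of different groups had a median correlation of 0.108 among PV-titled libraries, 0.257 among C-titled ones and 0.099 across prefixes (-0.032, -0.056 and -0.021 for different numbers). Of these pairs 52.9%, 69.2% and 49.3% were over 0.1, and 64 of 113 libraries correlated best with their own number. The replicate block called 3.53% of genes rhythmic under the PV prefix and 25.7% under the C prefix. It called Cort (adjusted p = 0.0166), and it changed the call of no other member. Depth limits Cort most, with 4 reads in its lowest C-titled library.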

Other observations

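Pdyn spread more widely in libraries titled PV than in those titled C, with a coefficient of variation of 30.4% against 17.1%. By this measure the other 7 genes went the other way. By the SD of log2 CPM, Penk also spread slightly more in PV-titled libraries (0.466 against 0.441), and Pdyn again did (0.496 against 0.259). Over all genes, PV-titled libraries also correlated less with their own prefix, with medians up to 0.959. The C-titled libraries that did not stand apart had medians of 0.964 or more. Across PV-titled libraries Pdyn ran from 6.87 to 25.9 CPM, and no gene had a Pearson r with it above 0.52 after time, sex and library-number range were taken out. This was noticed after the values had been seen and was not tested.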
